A study of Mus musculus with 6 samples.

Results

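The cell division cycle genes described here are 45 mouse genes named for cyclins and their kinases, DNA replication, mitosis and inhibition of the cycle. They were chosen by symbol and not by a cut on measured values, but with earlier results of these data known. Their probes were found through the RefSeq accession that each probe carries. All 45 had a probe, among 20672 gene symbols with a probe in the series. Of these, 43 passed the filter on dim probes. The probes of Ccne2, a cyclin of S phase entry, and Cenpf, a kinetochore protein, were well above background on 2 and 3 of 6 arrays and did not pass.

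RNA came from fibroblasts grown out of the heart and the skinned tail of male C57/Bl6-J mice, labelled 8 weeks old (8 to 10 in the protocol). The labels name no transgene and no agent. Minced tissue was digested with trypsin or collagenase, and cells were plated for 5 days in DMEM with 10% FBS. Each tissue had 3 cultures, each pooled from 2 animals and read on 1 array. The arrays are called heart 1 to 3 and tail 1 to 3, after their titles. No sorting or enrichment step beyond plating is named, so a culture can hold other cell types. With bulk RNA, more dividing cells and more of these transcripts per cell cannot be told apart.

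A fibroblast that leaves quiescence makes D cyclins, which with Cdk4 or Cdk6 inactivate the retinoblastoma protein and free E2F factors. E2F factors then switch on genes of DNA replication, and later the B-Myb and FoxM1 factors switch on genes of mitosis through a promoter sequence called the CHR element. INK4 inhibitors, such as the INK4 product of Cdkn2a and the product of Cdkn2b, block Cdk4 and Cdk6. Freshly plated primary mouse cells are known to raise these inhibitors with time in culture.

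A level below means the log2 processed signal of a gene's probe minus the 75th percentile of its array, so 1 unit is a 2-fold step. Signal well above background was seen for 47.3% to 55.2% of the spots on 5 arrays. The array labelled heart 2 stood apart: 99.3% of its spots were above background, 2748 were non-uniform against 0 to 7 elsewhere, and its r with other arrays over probes was 0.743 to 0.764. All other pairs lay at 0.957 or more. The median level over the features kept on 4 arrays was -0.105 on heart 2 and 0.66 to 0.69 on the other arrays. Low levels on heart 2 are thus not particular to the members. The array labelled tail 1 was closer to heart 1 and heart 3 (r of 0.989 and 0.979) than to tail 2 and tail 3 (0.969 and 0.957). Counts and medians are therefore given by label on 6 arrays and on 4 arrays without heart 2 and tail 1. For single genes the 4-array difference comes first and the difference by label beside it; by label every member's adjusted p lay between 0.714 and 0.985. Leaving out tail 1 rests on its signals, so p-values on 4 arrays are too small by an unknown amount. The labels describe the cultures as biological replicates.

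Split by label, the heart and tail cultures did not differ detectably in any cell cycle gene. limma called 0 of 43 members and 0 of 20197 features, a background of 0%, with 1 member (Cdkn2b) and 445 features at an unadjusted p under 0.05. The members' median difference, heart minus tail, was 0.25 on the log2 scale, beside -0.40 over all features, and leaving out 1 array at a time moved it between -0.36 and 0.73. Without heart 2 alone, 0 of 43 members and 0 of 20281 features were called (0%), 2 members had an unadjusted p under 0.05, and the median was 0.73 beside -0.03.

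On 4 arrays, limma called 4 members. Ccnd3 rose in heart, where 7.75% of all 20567 features were called in that direction. Ccnd1, Cdkn2a and Cdkn2b fell in heart, where 6.63% were called. The share higher, 1 of 43 members, lies below its background, and the share lower, 3 of 43, lies close to it. The members' median difference was 0.78 beside -0.07 over all features, and 38 of 43 were above 0. That median rested on heart 1: it was 0.12 without heart 1 and 1.37 without heart 3. Rows of the slide are not given by the labels and were inferred from a digit in the names of the deposited scans. Within the first row so inferred (heart 1 against tail 2) the members' median was 1.47. Within the second (heart 3 against tail 3) it was -0.01. By label, the first row (heart 1 and 2 against tail 1 and 2) gave 0.40, beside -0.58 over all features kept, and the second row holds the same pair as before.

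**Figure D1:**
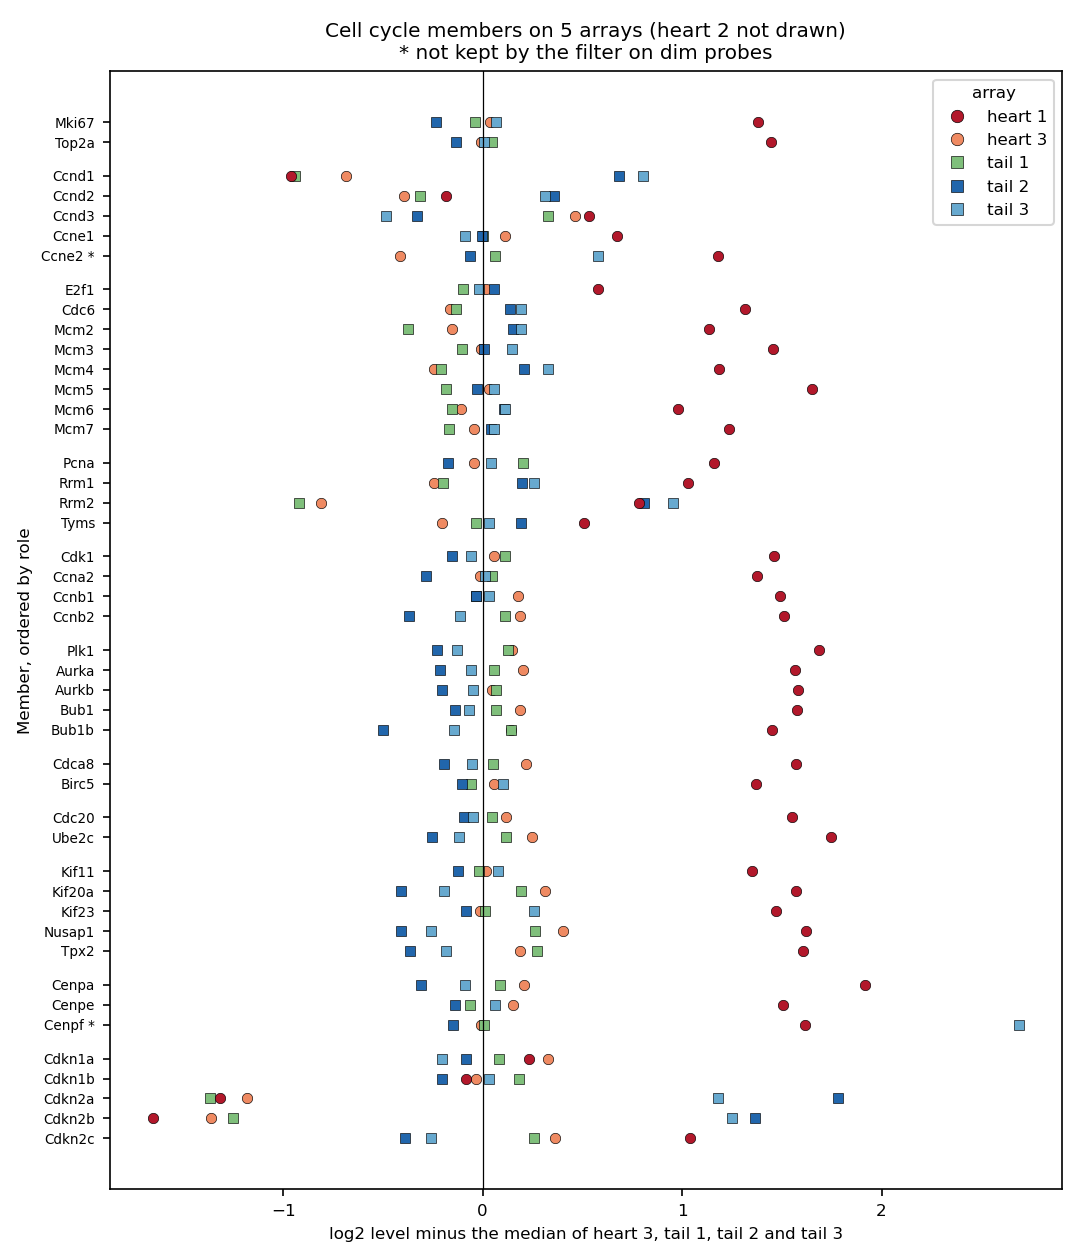
Level of each of the 45 members on heart 1, heart 3, tail 1, tail 2 and tail 3 (points), as the log2 difference from the gene's median over the last 4 arrays. Heart 1 stands to the right by 1.35 to 1.91 for the 22 G2/M members kept, while Ccnd1, Cdkn2a and Cdkn2b split tail 2 and tail 3 from the other arrays.

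Genes of mitosis were high on heart 1 and near one level on heart 3 and the tail arrays. For all 22 G2/M members kept (the proliferation markers and the cyclins, kinases, motors and centromere proteins of mitosis), heart 1 was at least 2-fold above the highest of heart 3, tail 1, tail 2 and tail 3. Over all members kept this held for 26 of 43, against 268 of 20567 features (1.3%), and heart 1 was simply the highest for 36 of 43, against 23.6% of features. These counts describe 1 array and carry no test. The median excess of heart 1 over the median of the other 4 arrays was 1.53 for the G2/M members (range 1.35 to 1.91) and -0.04 over all features, with quartiles of -0.32 and 0.27. Over those 4 arrays the range of a G2/M member was 0.18 to 0.81, with a median of 0.34.

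Mki67, the gene of the Ki-67 proliferation antigen, had levels of 5.33, 3.18 and 3.98 on heart 1, 2 and 3 and 3.91, 3.71 and 4.01 on tail 1, 2 and 3. Top2a, the topoisomerase that untangles sister chromatids, had 3.06, 0.90 and 1.61 on the heart arrays and 1.67, 1.49 and 1.63 on the tail arrays. In both, heart 1 was the highest and heart 2 the lowest, and heart 3 lay among the tail arrays. On 4 arrays Mki67 differed by 0.79 (SE 0.48, adjusted p 0.34) and Top2a by 0.78 (SE 0.51, adjusted p 0.367). By label they differed by 0.29 and 0.27.

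Cyclin B2, which with Cdk1 drives entry into mitosis, had Ccnb2 levels of 5.16, 2.66 and 3.84 in heart and 3.77, 3.29 and 3.54 in tail. Cdk1 itself had 4.14, 1.62 and 2.73 in heart and 2.79, 2.52 and 2.62 in tail. Ccnb1 had 3.91, 1.91 and 2.59 in heart and 2.39, 2.38 and 2.45 in tail. The groups overlapped in all 3 genes, but in Ccnb2 and Ccnb1 only through heart 2. Heart 1 exceeded the next array by 1.32 to 1.35. The 4-array differences of these 3 genes and Ccna2, the cyclin of S phase and G2, were 0.82 to 1.09 with adjusted p of 0.218 to 0.338, and by label 0.19 to 0.40.

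Among the mitotic kinases and checkpoint genes, Bub1b, which delays anaphase until chromosomes attach, had levels of 1.96, -0.07 and 0.66 in heart and 0.66, 0.01 and 0.37 in tail. Plk1, the kinase of mitotic entry and spindle assembly, had 6.15, 3.49 and 4.61 in heart and 4.59, 4.24 and 4.34 in tail. Aurka, the centrosomal Aurora kinase, had 4.68, 2.24 and 3.32 in heart and 3.17, 2.90 and 3.06 in tail. Heart 1 again stood clear of every other array, and heart 3 lay close to tail 1. The excess of heart 1 over the other arrays' median was 1.58 for both Aurkb, the Aurora kinase of the chromosomal passenger complex, and Bub1, the partner of Bub1b. The probe for Bub1 was spotted 10 times on the array, and its 7 to 10 usable spots had an SD of 0.04 to 0.09 on each array, a measure of spot noise and not of differences between cultures. On 4 arrays the 5 genes of this group differed by 0.94 to 1.12 (adjusted p 0.212 to 0.314), and by label by 0.36 to 0.57.

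Cdca8, which codes for borealin of the passenger complex, had levels of 5.24, 2.61 and 3.89 in heart and 3.72, 3.48 and 3.62 in tail. Birc5, which codes for survivin, had 6.21, 4.11 and 4.90 in heart and 4.78, 4.74 and 4.94 in tail. Both were highest on heart 1 and lowest on heart 2. Ube2c, the ubiquitin-conjugating enzyme of the anaphase-promoting complex, had 4.68, 1.91 and 3.19 in heart and 3.06, 2.69 and 2.82 in tail. Cdc20, the activator of that complex, had 6.04, 3.72 and 4.60 in heart and 4.53, 4.39 and 4.44 in tail. In Ube2c and Cdc20 heart 3 lay narrowly above every tail array. The differences of these 4 genes were 0.71 to 1.18 on 4 arrays (adjusted p 0.224 to 0.37) and 0.25 to 0.41 by label.

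The spindle genes Nusap1, Kif20a and Tpx2 had the largest 4-array differences of their group. Nusap1, a microtubule-binding protein of the spindle, had levels of 2.46, 0.95 and 1.25 in heart and 1.10, 0.43 and 0.58 in tail. Kif20a, a kinesin of cytokinesis, had 4.78, 2.10 and 3.52 in heart and 3.41, 2.81 and 3.02 in tail. Tpx2, an activator of Aurora A, had 3.84, 1.35 and 2.42 in heart and 2.50, 1.87 and 2.05 in tail. Here heart 3 and tail 1 both lay above tail 2 and tail 3. The differences were 1.35 (SE 0.43), 1.24 (SE 0.45) and 1.17 (SE 0.49), with limma adjusted p of 0.128, 0.16 and 0.212. By label they were 0.85, 0.39 and 0.39. Kif11 and Kif23, kinesins of spindle poles and midzone, were higher on heart 1 than on any of heart 3 and the tail arrays by 1.27 and 1.22. They differed on 4 arrays by 0.71 and 0.64 and by label by 0.71 and 0.19. On heart 2, Kif11 was at -0.60, above heart 3 and the tail arrays.

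Cenpa, the histone variant that marks centromeres, had the largest excess of heart 1 over the highest of heart 3 and the tail arrays among the members. Its levels were 4.11, 1.66 and 2.40 in heart and 2.28, 1.88 and 2.11 in tail, so heart 1 was 3.26-fold above the next array. Cenpe, a kinetochore motor, had 4.60, 2.10 and 3.25 in heart and 3.04, 2.96 and 3.16 in tail. The 4-array differences were 1.26 (SE 0.59, adjusted p 0.244) and 0.87 (SE 0.47, adjusted p 0.302), and by label 0.63 and 0.27. Of the dim Cenpf probe, only the readings on heart 1 (-3.56), heart 2 (-1.91) and tail 3 (-2.50) were above background.

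The promoters of these genes were read to show what they share in sequence. RefSeq windows of 300 bases, 250 before to 50 after the transcription start on GRCm38.p6, were found for 37 of the 45 members, 42 windows in all, since 5 members have 2. Members without one are Aurkb, Ccna2, Ccnd1, Ccnd2, Ccne2, Kif20a, Mcm4 and Tpx2. The CHR element was searched as TTTGAA or TTTAAA on both strands, and the CCAAT box, which binds NF-Y, as CCAAT on both strands. As examples, 5 promoters of mitotic genes described above that hold both motifs are printed from 100 bases before to 50 after the start, with CHR and CCAAT letters of either strand in capitals (TTCAAA and ATTGG are the reverse strand).
Ccnb2 (chr9:70421505-70421654, minus strand): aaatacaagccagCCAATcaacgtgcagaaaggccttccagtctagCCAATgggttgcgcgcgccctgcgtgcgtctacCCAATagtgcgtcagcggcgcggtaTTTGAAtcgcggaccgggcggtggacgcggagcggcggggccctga
Cdc20 (chr4:118437294-118437443, minus strand): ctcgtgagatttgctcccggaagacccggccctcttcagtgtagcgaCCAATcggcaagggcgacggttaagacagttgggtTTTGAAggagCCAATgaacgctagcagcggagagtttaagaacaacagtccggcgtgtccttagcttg
Plk1 (chr7:122159335-122159484, plus strand): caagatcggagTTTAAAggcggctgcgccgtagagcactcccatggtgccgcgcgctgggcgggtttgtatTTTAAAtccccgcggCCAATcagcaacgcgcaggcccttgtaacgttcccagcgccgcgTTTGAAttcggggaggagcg
Ube2c (chr2:164769829-164769978, plus strand): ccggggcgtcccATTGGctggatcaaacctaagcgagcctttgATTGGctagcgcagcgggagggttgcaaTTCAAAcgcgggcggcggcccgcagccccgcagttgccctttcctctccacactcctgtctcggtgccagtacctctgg
Cenpa (chr5:30666786-30666935, plus strand): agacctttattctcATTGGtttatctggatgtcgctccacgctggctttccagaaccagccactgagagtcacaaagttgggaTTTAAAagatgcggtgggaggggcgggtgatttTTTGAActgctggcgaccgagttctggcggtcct
The CHR letters lay in 17 of 19 G2/M windows (89.5%), against 27.6% of 32851 windows of all genes. Within 50 bases of the start they lay in 15 of 19 (78.9%) against 8.28%, and all 15 of these windows also held a CCAAT box (3.35% of all windows held both). A CCAAT box anywhere in the window was found in 17 of 19 (89.5%) against 37.4%. In Cdca8 a CHR and a CCAAT match overlap. These are letter matches, and no binding was measured.

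**Figure D2:**
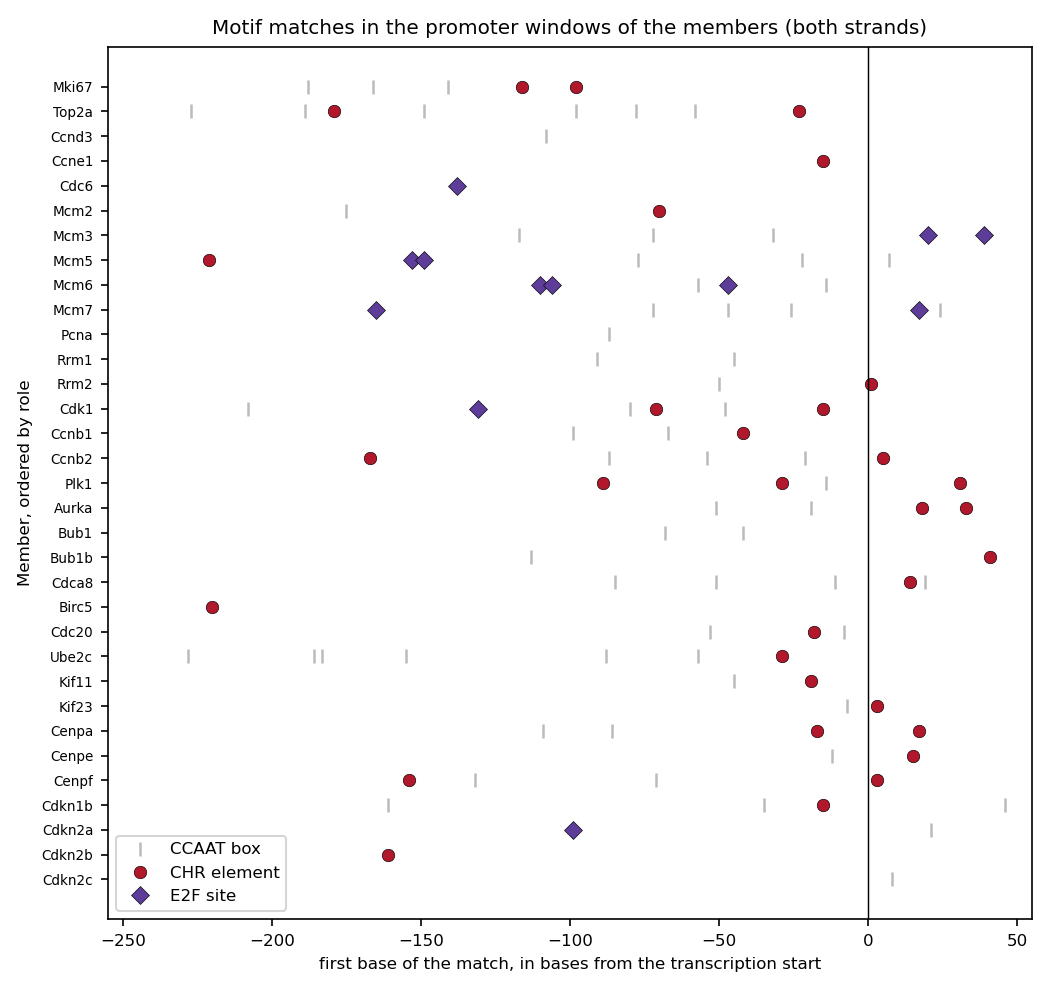
Position of each motif match, in bases from the transcription start (0), in the promoter windows of members that hold a match, ordered by role from the proliferation markers at the top to the CDK inhibitors at the bottom. CHR matches (circles) of G2/M members gather within 50 bases of the start, in 15 of 19 windows, while E2F matches (diamonds) sit mainly in the Mcm genes.

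Genes of DNA replication were also high on heart 1, by less. Heart 1 exceeded the median of the other 4 arrays by a median of 1.21 over E2f1, Cdc6 and the 6 Mcm genes. Those Mcm genes code for subunits of the replicative helicase. Over Pcna, Rrm1, Rrm2 and Tyms heart 1 exceeded that median by a median of 0.91. It was the highest of the 5 arrays for 11 of these 12 genes and at least 2-fold above the rest for 4 of them: Cdc6, Mcm3, Mcm5 and Mcm7. limma called none of the 12 on 4 arrays (0 with an unadjusted p under 0.05). Their median difference was 0.32, beside 0.96 for the G2/M members, and by label the medians were -0.002 and 0.36.

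Mcm5 had levels of 4.42, 2.22 and 2.80 in heart and 2.59, 2.74 and 2.83 in tail. Mcm3 had 5.17, 2.97 and 3.71 in heart and 3.62, 3.73 and 3.87 in tail. Mcm7 had 4.76, 2.63 and 3.48 in heart and 3.36, 3.57 and 3.58 in tail. All 3 code for subunits of the helicase ring, and in all 3 heart 3 lay inside the range of the tail arrays. On 4 arrays they differed by 0.83 (SE 0.56), 0.64 (SE 0.51) and 0.55 (SE 0.45), and by label by 0.43, 0.21 and 0.12. Mcm3 and Mcm7 turned below 0 without heart 1 (-0.0865 and -0.0927). E2f1, the transcription factor, and Cdc6, which loads the ring, differed by 0.28 (SE 0.24) and 0.41 (SE 0.51), and by label by -0.15 and 0.35.

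The promoters of the licensing genes were read for another motif. The E2F site was searched as TTTNNCGC with each N a C or G, on both strands, and is in capitals below with the CCAAT box. It lay in 5 of 7 windows of Cdc6 and the Mcm genes (71.4%), against 2.26% of all windows and 1 of 19 G2/M windows. Within 50 bases of the start it lay in 3 of 7 (42.9%), against 0.822%. CHR letters lay in 2 of those 7 windows (28.6%), and in 0 of 7 within 50 bases of the start. In the Mcm7 window the E2F and CCAAT letters overlap.
Mcm3 (chr1:20820263-20820412, minus strand): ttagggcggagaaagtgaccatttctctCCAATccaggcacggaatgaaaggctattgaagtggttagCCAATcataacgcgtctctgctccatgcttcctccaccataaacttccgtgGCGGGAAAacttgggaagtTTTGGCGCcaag
Mcm7 (chr5:138171834-138171983, minus strand): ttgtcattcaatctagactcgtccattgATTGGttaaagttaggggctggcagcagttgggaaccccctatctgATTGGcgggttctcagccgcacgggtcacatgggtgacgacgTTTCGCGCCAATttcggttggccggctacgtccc
Both windows hold an E2F match downstream of the start. Mcm7 has 2 windows, and the one shown was picked because it holds an E2F match. The other Mcm7 window held a CCAAT box and no E2F match. In the windows of Mcm5 and Mcm6 pairs of E2F matches overlap each other.

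Among the genes of the fork and of nucleotide supply, Pcna, the sliding clamp of DNA polymerase, had levels of 5.65, 3.51 and 4.44 in heart and 4.69, 4.31 and 4.53 in tail. Rrm1, the large subunit of ribonucleotide reductase, had 4.82, 2.70 and 3.55 in heart and 3.59, 3.99 and 4.05 in tail. Rrm2, its small subunit, had 4.91, 4.28 and 3.31 in heart and 3.20, 4.93 and 5.08 in tail. Rrm2 thus departed from the other replication genes: heart 1, tail 2 and tail 3 were high and heart 3 and tail 1 low, a spread of 1.88 among heart 3 and the tail arrays. The 4-array differences were 0.62 (SE 0.43) for Pcna, 0.17 (SE 0.45) for Rrm1 and -0.89 (SE 0.55, adjusted p 0.348) for Rrm2, and by label 0.02, -0.19 and -0.24. Tyms, thymidylate synthase, differed by 0.04 (SE 0.28), and by label by -0.15.

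Each heart array was next set against the same pair, tail 2 and tail 3, in a limma fit over all features. Both fits share those tail arrays, and the lone heart array is assumed to vary as they do. No spread between heart cultures entered either fit, and heart 1 had already been seen to be high for most members. The counts called below therefore describe 1 heart array each and do not test heart against tail. With heart 1, 29 members rose and 3 fell, against backgrounds of 7.85% and 6.3% of 22961 features. The 29 comprise 21 of 23 G2/M members (not Kif23 or Cenpf), 7 of the 12 replication genes and Cdkn2c, an INK4 inhibitor. With heart 3, 1 member rose and 5 fell, against 11.2% and 7.41% of 21266 features. None of those 6 is a G2/M gene, and the G2/M median was 0.24, with 21 of 22 above 0. Ccnd1, Cdkn2a and Cdkn2b were lower with either heart array.

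**Figure D3:**
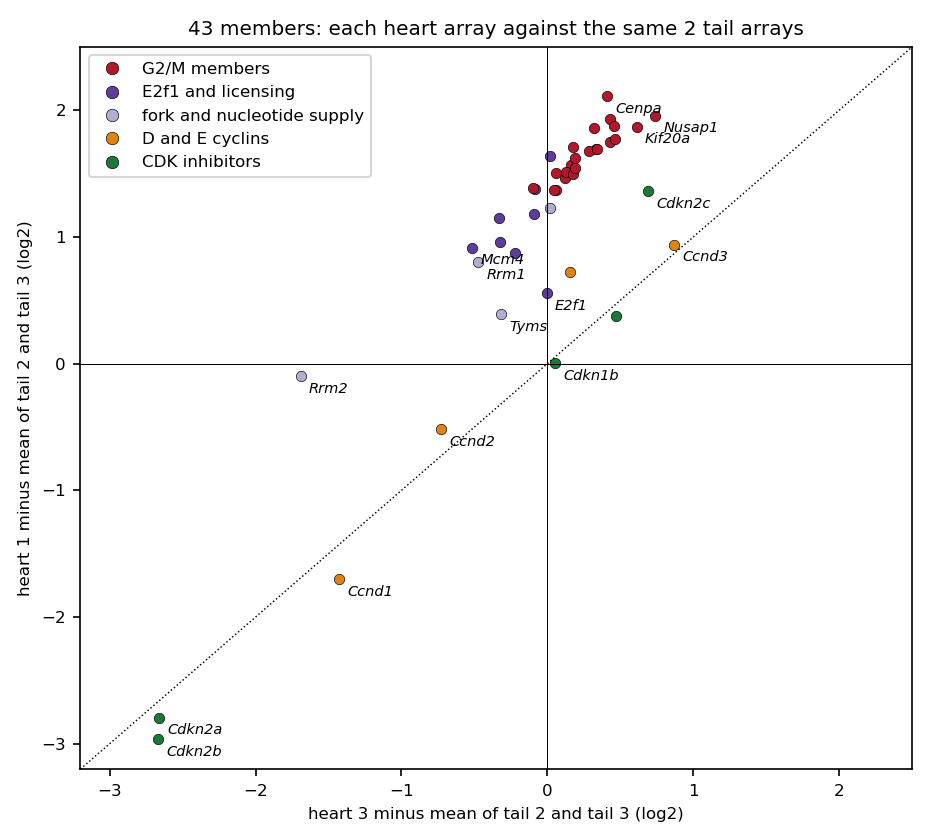
Log2 difference of heart 3 (x axis) and heart 1 (y axis) from the mean of tail 2 and tail 3, 1 point per member kept (43), coloured by role, with the dotted line of equal values. Both axes share the tail arrays, so no correlation is drawn from it; G2/M members sit between 1.37 and 2.11 on the y axis, while Cdkn2a and Cdkn2b lie near -2.7 or below on both axes.

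The D cyclins, which answer growth signals in G1, went in opposite directions. Ccnd1 had levels of 3.40, 2.89 and 3.67 in heart and 3.42, 5.04 and 5.16 in tail. Tail 2 and tail 3 were the highest and tail 1 lay among the heart arrays. On 4 arrays Ccnd1 was 2.96-fold lower in heart (-1.56, SE 0.17, adjusted p 0.00825). The call was lost without tail 2 (adjusted p 0.0568), without tail 3 (0.0678) and with no filter (0.0855), and by label the difference was -1.22 (SE 0.57, adjusted p 0.714). Paired within the inferred slide rows, the same 4 arrays gave -1.64 and -1.49, which adds no separate support. The first row with heart 2 and tail 1 kept gave -1.09.

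Ccnd2 had 4.46, 2.96 and 4.25 in heart and 4.33, 5.00 and 4.96 in tail. Tail 2 and tail 3 were again the highest, with tail 1 between heart 1 and heart 3. Its 4-array difference of -0.62 (SE 0.16) missed the threshold, with an adjusted p of 0.0743, and by label it was -0.87 (SE 0.53). Ccnd3 had 6.04, 3.23 and 5.97 in heart and 5.84, 5.18 and 5.03 in tail. Leaving heart 2 aside, heart 1, heart 3 and tail 1 were the high arrays. On 4 arrays it was 1.87-fold higher in heart (0.90, SE 0.15, adjusted p 0.0254), and by label it turned to -0.27 (SE 0.78, adjusted p 0.862). Paired within rows, the same 4 arrays gave 0.86 and 0.94, and the first row with heart 2 and tail 1 kept gave -0.88. Blocking on the slide row gave an adjusted p of 0.0531. The call was also lost with array median scaling (0.0553), no filter (0.195) and without heart 3 (0.0534), tail 2 (0.182) or tail 3 (0.276). Ccne1, cyclin E1 of the G1 to S step, differed by 0.44 (SE 0.24, adjusted p 0.294), and by label by -0.10.

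Cdkn2a and Cdkn2b, neighbours at 1 locus, gave the largest differences of all members. Cdkn2a had levels of 0.97, 1.18 and 1.10 in heart and 0.92, 4.06 and 3.46 in tail. Cdkn2b had 2.33, 2.76 and 2.62 in heart and 2.73, 5.35 and 5.23 in tail. In each gene tail 2 and tail 3 were high, and tail 1 lay with the 3 heart arrays. On 4 arrays Cdkn2a was 6.62-fold lower in heart (-2.73, SE 0.25, adjusted p 0.00501) and Cdkn2b 7.04-fold lower (-2.82, SE 0.17, adjusted p 0.002). By label the differences were -1.73 (SE 0.78) and -1.87 (SE 0.72), each with an adjusted p of 0.714. With no filter the Cdkn2a call was lost (adjusted p 0.0539).

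Each gene had a second probe of the same sign: the second probe of Cdkn2a differed by -2.71 between heart 1 and 3 and tail 2 and 3, and that of Cdkn2b by -2.89. The second Cdkn2a probe was well above background on heart 1 but not on heart 3, so its difference is measured on 1 of the 2 heart arrays. Paired within the slide rows, the same 4 arrays gave -3.10 and -2.36 for Cdkn2a and -3.02 and -2.61 for Cdkn2b. With heart 2 and tail 1 kept, the first row gave -1.42 and -1.49. Cdkn2a codes for an INK4 inhibitor and, in another reading frame, for the ARF protein, and which of these its probes read was not established. Cdkn2b was the only member in the authors' deposited table of changed probes, at a log2 fold of -2.40, or 5.29-fold lower in heart. Of their neighbours on chromosome 4, Mtap, a methionine salvage enzyme, had 0.83 and 0.08 on heart 1 and 3 and 0.24, 0.86 and 1.05 on the tail arrays, and was not called. Zfp352, another neighbour, had 2.08 and 2.89 on heart 1 and 3 and 2.38, 3.42 and 2.90 on the tail arrays. Its 4-array difference was -0.675 (SE 0.35), and it was not called. The neighbours Ifne and Dmrta1 were well above background on 1 array. Mtap and Zfp352 were chosen after their values were seen.

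The promoter windows of the locus are shown because its genes had the widest differences, with E2F and CCAAT letters in capitals. RefSeq gives 2 starts for Cdkn2a.
Cdkn2a, downstream start (chr4:89282143-89282292, minus strand): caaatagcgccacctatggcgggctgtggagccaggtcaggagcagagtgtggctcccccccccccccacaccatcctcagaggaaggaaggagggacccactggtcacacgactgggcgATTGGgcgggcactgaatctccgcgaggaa
Cdkn2a, upstream start (chr4:89294570-89294719, minus strand): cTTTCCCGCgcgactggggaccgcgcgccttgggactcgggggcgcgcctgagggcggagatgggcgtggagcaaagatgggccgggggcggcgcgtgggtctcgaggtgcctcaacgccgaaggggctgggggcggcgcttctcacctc
Cdkn2b (chr4:89310983-89311132, minus strand): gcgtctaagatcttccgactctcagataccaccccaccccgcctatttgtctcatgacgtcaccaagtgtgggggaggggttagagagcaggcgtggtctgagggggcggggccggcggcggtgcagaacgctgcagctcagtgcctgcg
The 8 windows of the CDK inhibitors held CHR letters within 50 bases of the start in 1 window, that of Cdkn1b, and an E2F match in 1, that of the upstream Cdkn2a start.

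**Figure D4:**
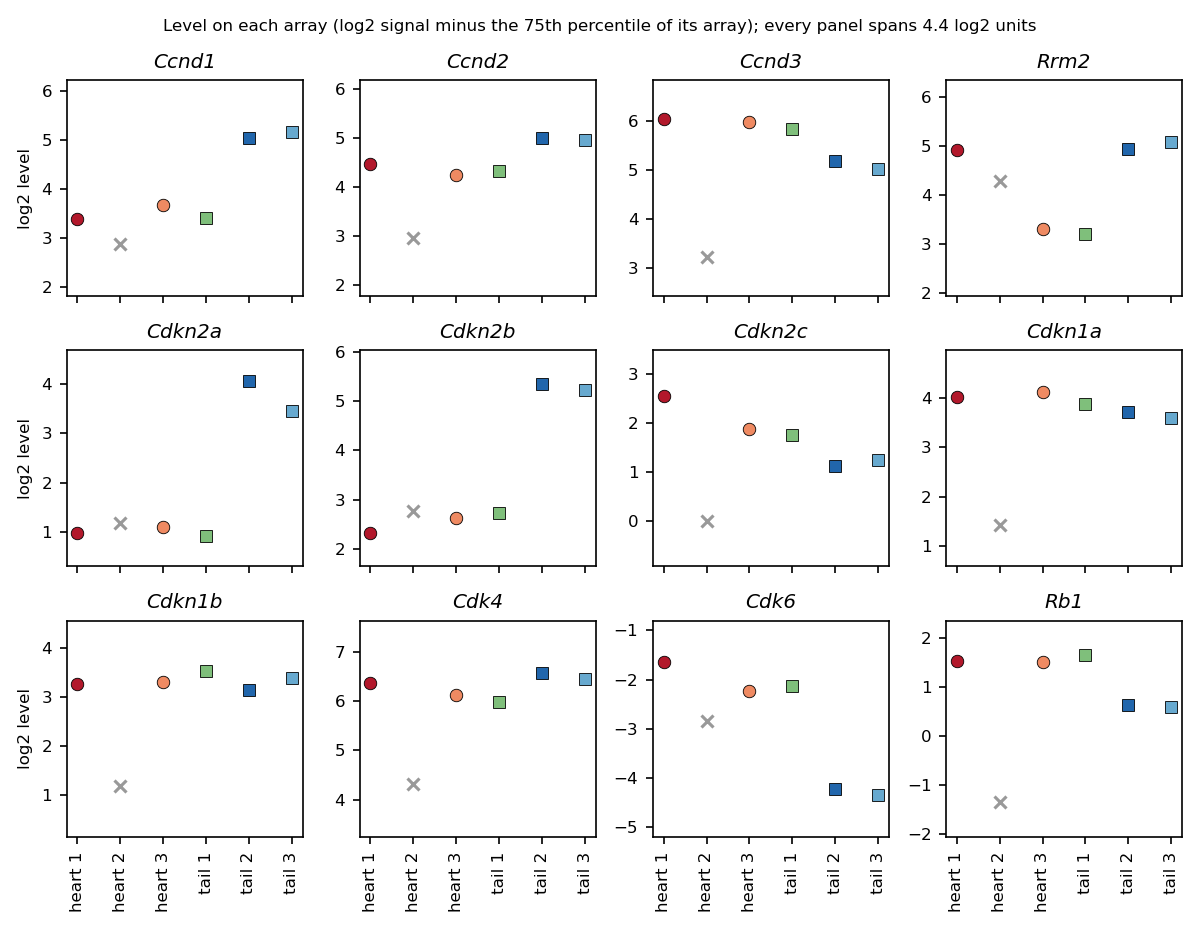
Level (log2 signal minus the array's 75th percentile) of 12 G1 and S phase regulators on each of the 6 arrays, 1 point per array, with every panel spanning the same height. Tail 1 lies with heart 1 and heart 3 for Cdkn2a, Cdkn2b, Ccnd1 and Cdk6, and heart 2 (cross) is low in most panels.

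The other inhibitors moved less. Cdkn2c, another INK4 inhibitor at a separate locus, went the opposite way, with 2.54, 0.01 and 1.87 in heart and 1.76, 1.11 and 1.25 in tail. Heart 1 was the highest, heart 3 and tail 1 came next and close together, and heart 2 was the lowest. Its difference of 1.03 (SE 0.27) missed the threshold (adjusted p 0.0805), and by label it was 0.10. Cdkn1a, the inhibitor induced by p53, had 4.03, 1.42 and 4.13 in heart and 3.88, 3.72 and 3.60 in tail. Cdkn1b, an inhibitor of Cdk2 complexes in quiescent cells, had 3.25, 1.17 and 3.30 in heart and 3.52, 3.13 and 3.37 in tail. Apart from heart 2, these values lay within 0.54 of each other in each gene. The differences were 0.42 (SE 0.15, adjusted p 0.154) and 0.03 (SE 0.16, adjusted p 0.927), and by label -0.54 and -0.76.

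Other genes of the cycle were taken from 3 further lists. Of 64 further G2/M genes 62 were kept, and heart 1 was at least 2-fold above heart 3 and the tail arrays for 47, where 1.3% of all features were so placed. Of 46 further G1/S and replication genes 42 were kept, with heart 1 so placed for 21. Of 29 genes that restrain the cycle it was so placed for 2, Cdkn3 and Plk3, which were chosen after their values were seen. The median excess of heart 1 over the median of those arrays was 1.50, 1.16 and -0.04. On 4 arrays limma called 0, 1 and 2 genes higher in heart and none lower, with 5, 4 and 8 genes at an unadjusted p under 0.05, against backgrounds of 7.75% higher and 6.63% lower. By label limma called none of these genes, with 2, 1 and 0 at an unadjusted p under 0.05. The lists' median differences were 0.88, 0.62 and -0.15 on 4 arrays and 0.37, 0.20 and -0.54 by label.

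Foxm1, which activates mitotic genes, had levels of 2.42, 0.93 and 0.97 in heart and 0.97, 0.63 and 0.77 in tail. Mybl2, the B-Myb factor, had 3.02, 1.17 and 1.73 in heart and 1.43, 1.74 and 1.66 in tail. Both followed the mitotic members, with heart 1 alone high, and neither was called (differences of 1.00, SE 0.50, and 0.67, SE 0.45, and by label 0.65 and 0.36). Cdk2, the kinase bound by cyclins E and A, differed by 0.36 (SE 0.35), and Cdk4, a partner of D cyclins, by -0.26 (SE 0.17). By label they differed by -0.10 and -0.73.

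Cdk6, the other partner of D cyclins, had -1.65, -2.85 and -2.24 in heart and -2.14, -4.23 and -4.36 in tail. It was not well above background on tail 2 or tail 3, where only a bound can be given, and tail 1 lay among the heart arrays. On 4 arrays Cdk6 was at least 4.18-fold higher in heart (adjusted p 0.00719), and by label the difference was 1.33 (adjusted p 0.714). Rb1, the retinoblastoma gene, had 1.54, -1.35 and 1.52 in heart and 1.65, 0.64 and 0.59 in tail, a 4-array difference of 0.92 (SE 0.14, adjusted p 0.0205). The direction of Rb1 turned by label, at -0.39, and its call was lost without tail 2 or tail 3 (adjusted p 0.196 and 0.235) and with no filter (0.178). Pmaip1, a death gene under p53, had -0.997, -3.31 and -0.78 in heart and -0.82, -2.44 and -2.62 in tail, with tail 1 beside heart 1 and heart 3. It was 3.12-fold higher in heart on 4 arrays (1.64, SE 0.17, adjusted p 0.00691), a call lost without tail 3 (0.0581). By label its difference was 0.27 (SE 0.80, adjusted p 0.866). With no filter the calls of Cdk6 (0.0699) and Pmaip1 (0.077) were lost too. Trp53, the gene of p53 itself, differed by -0.12 (SE 0.15), and by label by -0.30.

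**Figure D5:**
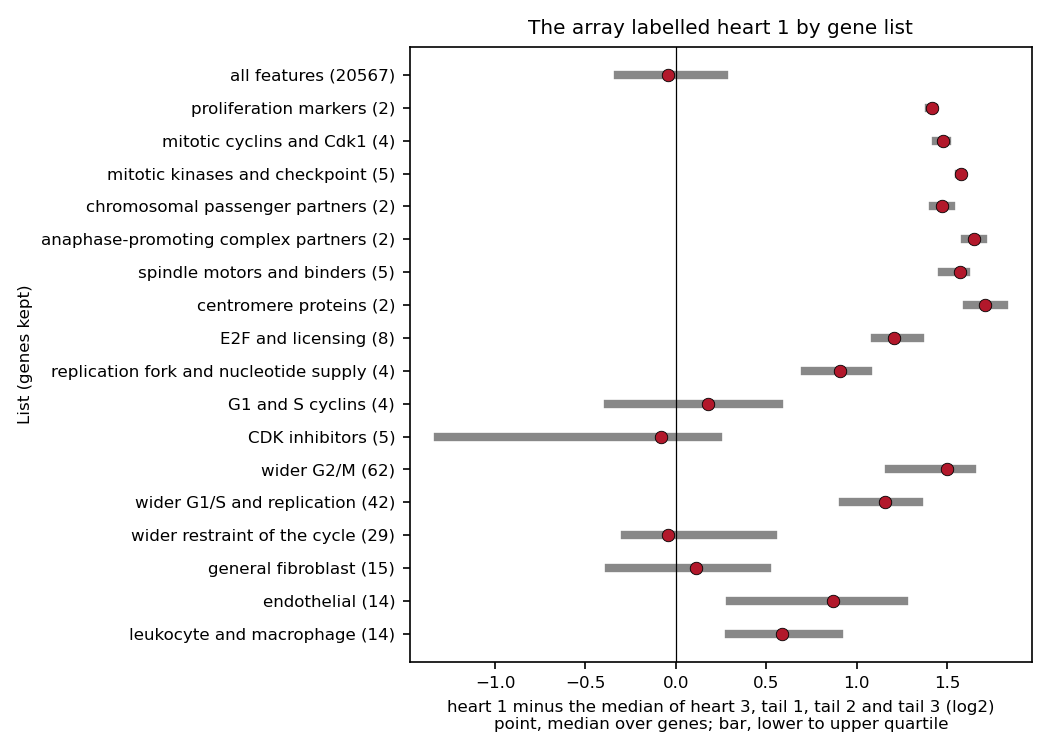
Excess of heart 1 over the gene's median on heart 3, tail 1, tail 2 and tail 3 (log2), for all features and for each list: point, median over genes; bar, lower to upper quartile; genes kept in parentheses. Mitotic lists lie near 1.5, replication lists near 1, and the CDK inhibitors, restraint genes and fibroblast markers near 0. Endothelial and leukocyte markers lie at 0.87 and 0.59.

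Markers of other cells were checked beside these patterns. All 15 general fibroblast markers were above background on heart 1, heart 3, tail 2 and tail 3, and their summed level was 11.7 to 12.1 on the 5 arrays other than heart 2. On 4 arrays 6 fibroblast markers rose in heart and 2 fell, where 7.75% and 6.63% of all features did. By label limma called 0 of them, and 0 endothelial or leukocyte markers. Of 15 endothelial and 16 leukocyte markers, 14 of each were kept, and 11 and 10 rose in heart. Their summed levels were 4.95 and 6.62 on heart 1, 5.24 and 7.42 on heart 3, 4.95 and 7.09 on tail 1, 5.23 and 6.54 on tail 2 and 4.87 and 6.09 on tail 3. The brightest endothelial probes, those of Kdr and Egfl7, were not called and weigh most in that sum. The median level over the endothelial markers kept was -0.93 on heart 1, -0.57 on heart 3, -0.71 on tail 1, -2.65 on tail 2 and -2.94 on tail 3. Over the leukocyte markers it was 2.21, 2.71, 2.51, 0.03 and -0.44 in the same order. No kept marker of these 3 lists was at least 2-fold above heart 3 and the tail arrays on heart 1, against 1.3% of all features. With so few markers, that count cannot set them apart from all features. The median excess of heart 1 over the median of those arrays was 0.87 for endothelial, 0.59 for leukocyte and 0.11 for fibroblast markers. Over all features it was -0.04. The part of these cells in the members' levels was not tested.

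Of 8 smooth muscle and pericyte markers 5 fell in heart on 4 arrays, with summed levels of 9.31 on heart 1, 9.20 on heart 3, 8.93 on tail 1, 10.6 on tail 2 and 10.3 on tail 3. Those high on tail 2 and tail 3 follow the same arrays as Cdkn2a, Cdkn2b and Ccnd1, and their part in those differences was not tested. The summed levels of 11 cardiomyocyte markers (1 rose, 3 fell), 10 skeletal muscle markers (0 rose, 3 fell) and 9 keratinocyte markers (0 rose, 1 fell) were 1.09 to 2.42, 3.58 to 5.55 and 2.72 to 2.92 on those 5 arrays. Over all features 7.75% rose and 6.63% fell on 4 arrays. By label limma called 0 smooth muscle, cardiomyocyte, skeletal or keratinocyte markers. Pln and Ryr2 of the cardiomyocyte list, Pax7 and Ckm of the skeletal list and Krt1, Cdh1 and Epcam of the keratinocyte list were above background only on heart 2.

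The array labelled tail 1 lay beside heart 3 over the members. The median absolute gap between them was 0.12 and the largest was 0.26 (Ccnd1). From tail 1 to tail 2 and tail 3 the median gaps were 0.27 and 0.24, with the largest (3.14 and 2.54) at Cdkn2a, while tail 2 and tail 3 lay 0.14 apart. Over all features, tail 1 lay 0.13 from heart 3 and 0.37 and 0.33 from tail 2 and tail 3. The closeness of tail 1 to heart 3 was thus not particular to the members. Heart 1 and heart 3 lay 1.32 apart over the members and 0.29 apart over all features.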

How the data were processed

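The members and gene lists were chosen with earlier results of these data known. The deposited spot intensities come, per the file headers, from Agilent Feature Extraction 11.0.1.1, which subtracted background and corrected trends across each array; the other columns used are deposited flags, 0 or 1 per spot, for signal above background, saturation and outliers, and median spot and background intensities. The authors deposited a table of log2 fold changes and linear fold ratios of heart over tail; the normalization behind it is not stated in the labels.

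There were 55681 probes in 59305 non-control spots per array, none of them saturated. The log2 of the processed signal had the 75th percentile over non-control probes of its array subtracted. Spots flagged as outliers were dropped before a probe's spots were averaged. Symbols came from RefSeq accessions for 27229 probes and from the deposited table for 27, and 28425 had none. Members had 61 probes. A probe entered a fit if every array of heart or of tail had it well above background, and the brightest stood for its gene; in 13 members with several probes all had 1 sign. Differences were tested with limma 3.58.1 (eBayes after lmFit, two-sided; called at a p under 0.05 after Benjamini-Hochberg adjustment over all features) in R 4.3.3, and the code was tested on simulated data. Python 3.11.15, pandas 2.3.3 and matplotlib 3.10.9 did the rest. The number of arrays limits the precision.

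Values on every array are given for up to 3 members per role with the largest 4-array differences, all D cyclins and all CDK inhibitors. From the further lists, called genes (up to 3 per direction) and Cdk2, Cdk4, Cdk6, Foxm1, Mybl2, Rb1 and Trp53 are named. For a probe not well above background in 1 group, the fold is a bound against the higher of its own signal and the lowest signal well above background. Normexp was planned on mean signals and run on median signals (offset 50). The summed level of a marker list is log2 of its genes' summed linear levels. Alternatives were other scalings, filters, probe rules, blocks, array weights and leaving out each array.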

Additional observations from a re-analysis of the deposited data

How the results depend on the processing

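By label, on 6 arrays, the counts of 0 features and 0 members called became 2329 and 5 with array weights (heart 2 at a weight of 0.03) and 2957 and 4 without heart 2 and tail 1; leaving out 1 array gave 0 to 214 features, the highest without heart 1, and 0 members. Deviations of same-numbered arrays from their group means correlated at 0.31, 0.36 and -0.39. Heart 2 and tail 1 weigh on those means, so these values cannot tell whether the replicate numbers pair the arrays. A replicate block called 44 features and 0 members. The members' median by label was -0.68 with array median scaling, where all features shifted to -1.33. On 4 arrays, the 2957 features and 4 members became 716 and 1 with no filter on dim probes, where 37066 features were tested; leaving out 1 array gave 1572 to 3951 features, 2 to 32 members and a median of 0.12 to 1.37, and the features called fell to 1902 without tail 2 and 1572 without tail 3. Differences that turned by label were Ccnd3 (-0.27), Rrm1 (-0.19), Cdkn1a (-0.54), Cdkn1b (-0.76), Rb1 (-0.39), Cdk2 (-0.10), Ccne1 (-0.10), E2f1 (-0.15), Mcm4 (-0.03), Mcm6 (-0.10) and Tyms (-0.15). Leaving out 1 of the 4 arrays moved Mcm3 between -0.0865 and 1.38, Mcm7 between -0.0927 and 1.18, Rrm1 between -0.47 and 0.80, Cdkn1b between -0.0921 and 0.15 and Cdk2 between -0.11 and 0.84; E2f1 (-0.004), Cdc6 (-0.33), Mcm2 (-0.33), Mcm4 (-0.51), Mcm6 (-0.22), Tyms (-0.32) and Kif23 (-0.10) also turned below 0 without heart 1. The cause was not tested. Of 39 genes named with values, all 39 kept their direction and side of the threshold with quantile or cyclic loess scaling and with the mean of probes, and 38 of 38 tested with a filter on all arrays. Normexp and trend with robust estimation each brought Ccnd2 past the threshold (adjusted p 0.0311 and 0.0346), and normexp also Cdkn2c (0.042). Signal near background limits Ccne2, Cenpf and, on tail 2 and tail 3, Cdk6.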
